A study of Mus musculus with 8 samples.

Results

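The 7 IGF binding protein genes Igfbp1 to Igfbp7 and the 2 IGF receptor genes Igf1r and Igf2r were examined in primary mouse hepatocytes that lack p16. They were taken by gene symbol from the 22180 genes with a row of their own on the array. Each of the 9 had 1 row, so no choice between rows arose, and all 9 lay above the filter on dim genes that left 15380 genes for testing.

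Hepatocytes, the parenchymal cells of the liver, had been isolated by collagenase perfusion from p16-/- mice (p16 KO) and from their p16+/+ littermates (p16 WT), with 4 samples and 4 arrays in each group. p16 is the CDK4 and CDK6 inhibitor encoded by Cdkn2a. Both groups had the same culture. It began overnight in Williams E medium, to which insulin (100 nM), dexamethasone (25 nM) and fetal bovine serum (10%) had been added. From 16 h on the medium was DMEM of low glucose (1 mM) with albumin (0.1%), and after a further 8 h, at 24 h, RNA was harvested. The titles call the samples biological replicates. The labels give neither the sex and age of the mice, nor the deleted part of the gene, nor whether each sample came from its own animal. The p-values therefore measure the spread between these samples, which may in part be technical.

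Insulin-like growth factors circulate bound to a family of secreted binding proteins that prolong their life in blood and hold them back from their receptors. The liver is the main source of circulating IGF1. Among liver cells, hepatocytes are known to secrete IGFBP1, IGFBP2 and IGFBP4, while in the rat IGFBP3 has been assigned to non-parenchymal cells. Igfbp1 is an acutely regulated member: fasting, glucagon and glucocorticoids induce it and insulin represses it. IGF1R is the signalling tyrosine kinase receptor, of which mature hepatocytes make little. IGF2R, also the cation-independent mannose 6-phosphate receptor, clears IGF2 and sorts lysosomal enzymes.

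The arrays were alike: across the genes tested, pairs from the same group correlated at 0.985 to 0.993, and pairs of a p16 KO with a p16 WT array at 0.973 to 0.983. KO replicate 4 stood apart from the other arrays on the second principal component (-25.2, against -8.91 to 14.6 for the others), and results that turn on it are given with and without it. Cdkn2a lay at 4.27 to 4.91 on the log2 scale in the p16 KO arrays and at 4.16 to 4.79 in the p16 WT arrays. The groups overlapped, and where its probes lie relative to the deletion is not known, so this row does not check the genotype.

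The promoters of the 3 genes that differed between the groups are shown because they set an acutely regulated gene beside its neighbour and beside a gene typical of vessel walls. Each is the RefSeq window (GRCm38.p6) of 250 bases before to 50 bases after the annotated start, 5′ to 3′ on the strand of the gene. Capitals mark CAAAACA, the core of the insulin response sequence described in the Igfbp1 promoter, and the GC box GGGCGG, each searched on both strands.
Igfbp1, chr11:7197537-7197836, plus strand: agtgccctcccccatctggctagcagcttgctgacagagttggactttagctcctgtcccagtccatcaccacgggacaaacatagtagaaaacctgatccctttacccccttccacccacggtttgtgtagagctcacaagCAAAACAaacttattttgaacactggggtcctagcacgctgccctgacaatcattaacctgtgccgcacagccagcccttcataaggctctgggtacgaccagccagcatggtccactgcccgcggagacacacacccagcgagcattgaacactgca
Igfbp3, chr11:7213874-7214173, minus strand: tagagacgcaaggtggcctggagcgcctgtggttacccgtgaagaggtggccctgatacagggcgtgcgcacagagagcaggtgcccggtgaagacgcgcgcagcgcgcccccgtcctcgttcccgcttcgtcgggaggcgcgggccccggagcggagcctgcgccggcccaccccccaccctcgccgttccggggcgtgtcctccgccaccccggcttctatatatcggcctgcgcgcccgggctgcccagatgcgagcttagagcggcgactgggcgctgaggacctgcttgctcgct
Igfbp7, chr5:77407996-77408295, minus strand: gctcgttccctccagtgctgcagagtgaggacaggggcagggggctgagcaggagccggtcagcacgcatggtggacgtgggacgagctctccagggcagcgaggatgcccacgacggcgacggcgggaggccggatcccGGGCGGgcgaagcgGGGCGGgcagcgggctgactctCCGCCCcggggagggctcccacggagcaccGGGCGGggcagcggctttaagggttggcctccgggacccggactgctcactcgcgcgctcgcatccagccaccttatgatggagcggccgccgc

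All 9 genes had such a window, and Igfbp2 had a further one. CAAAACA was found in 1 of these 10 windows, that of Igfbp1, where it began 108 bases before the start, and in 6.28% of the 32851 windows of all genes. GGGCGG was found in 4 of the 10 windows, those of Igfbp2, Igfbp7, Igf1r and Igf2r, and in 35.7% of all windows. It was chosen after the sequences were seen. The Igfbp7 window held it 4 times, and the Igfbp1 and Igfbp3 windows did not hold these letters. TATAAA, searched on both strands as well and not marked above, was found in 2 of the 10 windows, those of Igfbp4 and Igfbp6, and in 13.6% of all windows. For Igfbp4 it lay 28 bases before the start on the strand of the gene, and for Igfbp6 148 bases before it on the opposite strand. The windows differed in base composition, with 54.3% G and C for Igfbp1, 71.7% for Igfbp3 and 73.3% for Igfbp7, against a median of 52.7% over all windows. Such matches describe the letters in these windows and do not show binding of a factor.

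Of the 9 genes, Igfbp1 was higher in p16 KO hepatocytes, Igfbp3 and Igfbp7 were lower, and the other 6 did not pass the test (limma, Benjamini-Hochberg adjusted p under 0.05 over all 15380 genes). That is 33.3% of the members, where 13.8% of all genes tested were called. In the direction of a rise 1 of 9 was called, against 7.02% of all genes, and in the direction of a fall 2 of 9, against 6.76%. The 4 p16 KO arrays did not overlap the 4 p16 WT arrays for 5 members, against 20.2% of all genes. The changes of 5 members were above 0, and the median change of the members was 0.07 on the log2 scale, beside -0.02 for all genes tested.

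**Figure D1:**
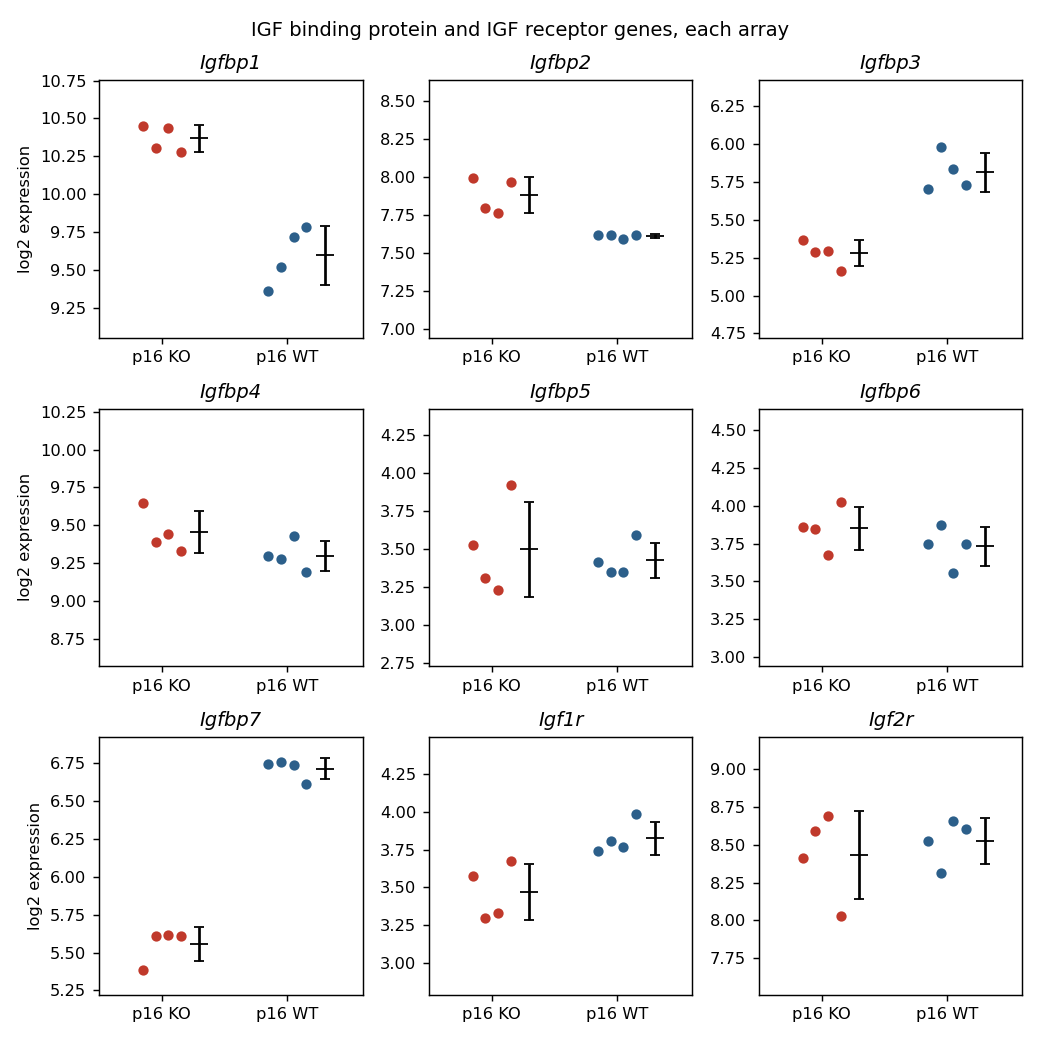
Log2 expression of the 9 genes in each of the 4 p16 KO arrays (red) and 4 p16 WT arrays (blue), with the mean and SD of each group as a black bar; every panel spans the same number of log2 units. Igfbp1 is separated upward and Igfbp3 and Igfbp7 downward in p16 KO, Igfbp2 and Igf1r are separated by narrower gaps, and the remaining 4 genes overlap.

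Igfbp1, the binding protein that rises in fasted liver, was measured at 10.45, 10.31, 10.44 and 10.28 on the log2 scale in p16 KO arrays, and at 9.36, 9.52, 9.72 and 9.78 in p16 WT arrays. Every p16 KO value lay above every p16 WT value, and the p16 KO arrays were the more uniform group (SD 0.09 in p16 KO and 0.19 in p16 WT, n = 4 each). Igfbp1 averaged 10.37 in p16 KO and 9.60 in p16 WT, a rise of 0.77 (SE 0.11, 95% interval 0.53 to 1.01), or 1.71-fold (limma, adjusted p = 7.73e-04). Among the 15380 genes its rank by size of rise was 285.

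Igfbp3, which encodes the main carrier of IGFs in blood, had values of 5.37, 5.29, 5.29 and 5.16 in p16 KO arrays, and of 5.70, 5.98, 5.84 and 5.73 in p16 WT arrays. The highest p16 KO array lay below the lowest p16 WT array. The mean was 5.28 ± 0.08 in p16 KO and 5.81 ± 0.13 in p16 WT (SD, n = 4 each). Igfbp3 fell by 0.53 (SE 0.09), or 1.45-fold (limma, adjusted p = 0.00317). Igfbp1 and Igfbp3 are neighbours on chromosome 11, with 0 annotated genes between them in the RefSeq table, and they lie on opposite strands. Their changes had opposite signs, and each passed the test.

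Igfbp7, a relative of low IGF affinity that is typical of vessel walls and is also counted among the factors secreted by senescent cells, changed most of the 9. Its values were 5.39, 5.61, 5.61 and 5.61 in p16 KO arrays, and 6.75, 6.76, 6.74 and 6.61 in p16 WT arrays. The gap between the groups was wider than the range within either. It averaged 5.55 ± 0.11 in p16 KO and 6.71 ± 0.07 in p16 WT (SD, n = 4 each), a fall of 2.23-fold (log2 change -1.16, SE 0.09, limma, adjusted p = 1.16e-05). Its rank by size of fall among all genes tested was 69.

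Igfbp2, an abundant serum binding protein made by hepatocytes, was measured at 7.99, 7.80, 7.76 and 7.97 in p16 KO arrays, and at 7.61, 7.61, 7.59 and 7.62 in p16 WT arrays. The groups did not overlap, and the p16 WT arrays lay unusually close together (SD 0.12 in p16 KO and 0.01 in p16 WT, n = 4 each). The difference of 0.27 (SE 0.09, 95% interval 0.08 to 0.46) did not pass the test (limma, adjusted p = 0.0626). It passed with variances modelled as a trend in intensity (adjusted p = 0.0282) and with a stricter filter on dim genes (adjusted p = 0.0346). Its neighbour on chromosome 1, Igfbp5, overlapped between the groups.

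Igfbp4, whose product blocks IGF action until the protease PAPP-A cleaves it, had values of 9.65, 9.39, 9.44 and 9.33 in p16 KO arrays, and of 9.30, 9.28, 9.43 and 9.19 in p16 WT arrays. WT replicate 3 lay among the p16 KO arrays. The difference was 0.15 (SE 0.10, limma, adjusted p = 0.360), with a 95% interval of -0.06 to 0.37, so a rise of the size seen for Igfbp1 falls outside the interval while a smaller one does not.

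Igfbp5, whose product binds extracellular matrix, and Igfbp6, whose product prefers IGF2, were dim. Igfbp5 ranged from 3.23 to 3.92 in p16 KO arrays and from 3.35 to 3.59 in p16 WT arrays, and Igfbp6 from 3.67 to 4.02 in p16 KO arrays and from 3.56 to 3.87 in p16 WT arrays. The means over all 8 arrays were 3.46 for Igfbp5 and 3.79 for Igfbp6, where the filter on dim genes stood at 3.32. KO replicates 2 and 3 lay below that value for Igfbp5 (3.31 and 3.23), and whether the values stand above background was not tested. The differences were 0.07 (95% interval -0.24 to 0.39, limma, adjusted p = 0.807) for Igfbp5 and 0.12 (95% interval -0.11 to 0.35, adjusted p = 0.524) for Igfbp6. Without KO replicate 4, the highest Igfbp5 array, the Igfbp5 difference was -0.07.

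Igf1r, the receptor through which IGF1 signals, was dim as well. It was measured at 3.57, 3.30, 3.33 and 3.68 in p16 KO arrays, and at 3.74, 3.80, 3.77 and 3.98 in p16 WT arrays. KO replicate 2 lay below the filter value of 3.32 and KO replicate 3 just above it, and whether the values stand above background was not tested. The groups did not overlap, but the gap between the highest p16 KO and the lowest p16 WT array was narrower than the range within either group. The difference of -0.35 (SE 0.11, 95% interval -0.59 to -0.11) did not pass the test (limma, adjusted p = 0.0539). Without KO replicate 4 it was -0.42 and passed (adjusted p = 0.0230).

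Igf2r was measured at 8.41, 8.59, 8.69 and 8.03 in p16 KO arrays, and at 8.53, 8.31, 8.66 and 8.60 in p16 WT arrays. The groups overlapped, and KO replicate 4 was the lowest of the 8 arrays. The difference was -0.09 (SE 0.14, 95% interval -0.41 to 0.22, limma, adjusted p = 0.736), and 0.04 without KO replicate 4 (adjusted p = 0.863).

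Cell type markers moved on the same arrays, and the binding protein genes are known to be expressed in different liver cells. In bulk RNA, fewer cells of a type and less RNA per cell cannot be told apart. Of 20 tested markers of mature hepatocytes 15 were higher in p16 KO, 0 were lower and 5 did not pass, with list means of 10.47 to 10.62 in p16 KO arrays and 9.59 to 9.82 in p16 WT arrays. Arg1, a urea cycle enzyme gene, rose by 2.69 and Mat1a, the hepatocyte methionine adenosyltransferase gene, by 2.51, while albumin (Alb, named after its value was seen) had a change of 0.03.

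Of 30 markers of endothelial cells, not all of them particular to sinusoids, 24 were lower, 1 was higher (Flt1, named after its value was seen) and 5 did not pass. The endothelial list means were 4.54 to 4.64 in p16 KO arrays and 5.38 to 5.55 in p16 WT arrays, and Cdh5, which encodes the adhesion protein VE-cadherin, fell by 2.03. Eng, which encodes the TGF-beta co-receptor endoglin, fell by 1.56. Of 22 markers of stellate cells and fibroblasts 6 were lower, 1 was higher (Reln, named after its value was seen) and 15 did not pass, with list means of 4.39 to 4.54 in p16 KO arrays and 4.83 to 4.96 in p16 WT arrays. Rgs5, a pericyte marker gene, fell by 1.65 and the matrix protein gene Sparc fell by 1.25. Of 16 macrophage markers 12 were lower and 1 was higher (Cd68, named after its value was seen), with list means of 4.38 to 4.45 in p16 KO arrays and 5.12 to 5.29 in p16 WT arrays. The cathepsin gene Ctss fell by 1.37 and the Fc receptor chain gene Fcer1g fell by 0.91.

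Bile duct and mesothelial markers were not called: limma called 0 of 4 and 0 of 6, with 1 and 0 at an unadjusted p under 0.05. Their part, and that of the other cell types, in the differences of the binding protein genes was not tested beyond the comparison of changes that follows.

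**Figure D2:**
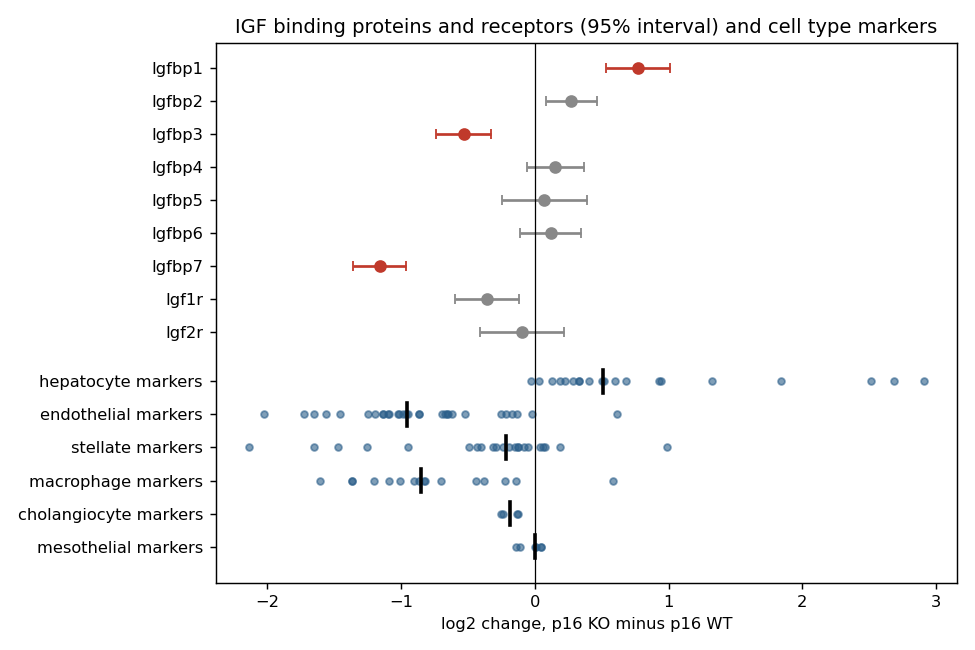
Log2 change, p16 KO minus p16 WT, of the 9 genes with 95% intervals (red where the adjusted p is under 0.05) and, in blue, of each tested marker of 6 liver cell types, with a black bar at the list's median. Igfbp1 lies within the range of the hepatocyte markers and above 21 of the 22 stellate markers. Igfbp3 and Igfbp7 lie within the range of the endothelial, stellate and macrophage markers.

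The change of each gene was set against that of 3 marker lists by subtracting from each array its mean over the list and refitting all 15380 genes. Relative to the hepatocyte markers, 8 of the 9 genes were lower and Igfbp1 was not called. Since 96.4% of all genes were lower on this scale, the count of 8 is near the background. Igfbp1 differed from the hepatocyte markers by -0.09 (SE 0.10, limma, adjusted p = 0.382). With each array's median expression over the list subtracted in place of its mean, the difference was 0.04 (adjusted p = 0.702). Neither summary is the change of the middle marker: the median change of the 20 hepatocyte markers was 0.51, below the 0.77 of Igfbp1. Of these markers 13 changed by less than Igfbp1 and 7 by more, and their changes ran from -0.03 to 2.91. Igfbp2 and Igfbp4, also hepatocyte products, lay below the mean of the hepatocyte markers, with differences of -0.59 (SE 0.11, adjusted p = 1.55e-04) and -0.71 (SE 0.11, adjusted p = 4.09e-05). Both were called with the array medians of the list too (-0.46 and -0.57), although 5 of the 20 markers changed by less than Igfbp2 and 3 by less than Igfbp4.

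Relative to the endothelial markers, 8 of the 9 genes were higher, where 97% of all genes were, and Igfbp7 was lower, where 0.442% of all genes were. The change of Igfbp7 exceeded the mean fall of the endothelial markers by 0.29 (log2 difference -0.29, SE 0.10, limma, adjusted p = 0.0145). Of the 30 endothelial markers 7 fell further than Igfbp7. Without KO replicate 1, the array with the lowest Igfbp7 value, the difference was -0.22 and was not called (adjusted p = 0.0532). Igfbp3 fell less than the mean of the endothelial markers, by 0.33 (SE 0.10, adjusted p = 0.00786). The changes of 7 of the 30 markers lay above that of Igfbp3.

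Relative to the stellate markers, 5 of the 9 genes were higher, where 62.1% of all genes were, and Igfbp7 was lower (-0.75, SE 0.12, limma, adjusted p = 1.52e-04), where 1.37% of all genes were. The other 3, not called, were Igfbp3 (-0.12, SE 0.12, adjusted p = 0.368), Igf1r (0.05, SE 0.12, adjusted p = 0.690) and Igf2r (0.31, SE 0.16, adjusted p = 0.0881). Igf2r was called without KO replicate 4 (0.47, adjusted p = 0.00706) and, on all 8 arrays, with the stricter filter on dim genes (0.37, adjusted p = 0.0299). The stellate markers themselves changed by -2.13 to 0.99, and 4 of the 22 fell further than Igfbp7. With each array's median over the list in place of its mean 3 genes were called, the calls of Igfbp4, Igfbp5 and Igfbp6 being lost.

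**Figure D3:**
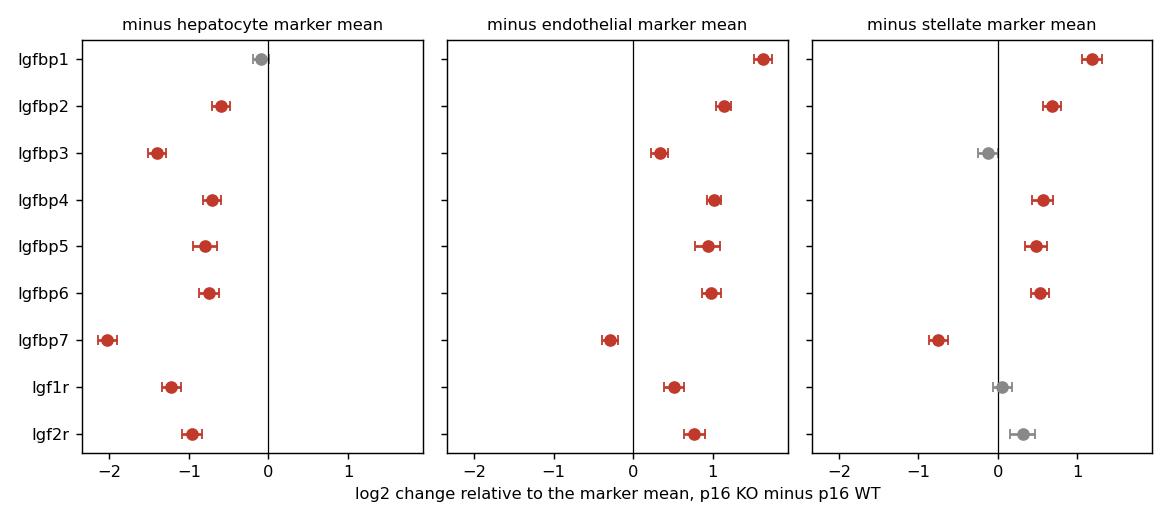
Log2 change of each of the 9 genes, p16 KO minus p16 WT, after subtraction of the array's mean over hepatocyte, endothelial or stellate markers, with standard errors; red points have an adjusted p under 0.05. Igfbp1 sits at -0.09 against the hepatocyte markers, and Igfbp7 is below 0 against all 3 lists.

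The ligands of the family and their circulating partner did not pass the test (limma, 0 of 3 called, and 0 at an unadjusted p under 0.05). Igf1 averaged 9.18 in p16 KO and 9.14 in p16 WT, a difference of 0.03 (SE 0.09), Igf2 had one of -0.19 (SE 0.09, adjusted p = 0.222), and Igfals, which completes the ternary complex with IGF and IGFBP3, one of -0.06 (SE 0.12). These 3 were named after their values were seen. Of 7 genes of growth hormone signalling, a list that holds the receptor, its kinase and STAT5 factors and also 3 feedback inhibitors (Socs1, Socs2 and Cish), 2 rose and 0 fell. They were the growth hormone receptor gene Ghr (0.73, SE 0.11, adjusted p = 0.00109) and the transcription factor gene Stat5b (0.53, SE 0.11, adjusted p = 0.00646).

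Genes that carry the signal inside the cell moved both ways. Of 8 genes for the insulin receptor and its adaptors 2 rose and 1 fell. The insulin receptor substrate gene Irs2 was measured at 7.20, 6.95, 6.94 and 6.34 in p16 KO arrays, and at 5.83, 4.89, 5.75 and 5.45 in p16 WT arrays. The groups did not overlap, and the rise was 2.60-fold (log2 change 1.38, SE 0.22, limma, adjusted p = 0.00171). The adaptor gene Grb14 rose by 0.56 (SE 0.17, adjusted p = 0.0488), a call lost without any of KO replicates 1 and 3 or WT replicates 1, 2 and 4 (adjusted p = 0.0969 to 0.133). Grb10, whose product binds and restrains the insulin and IGF1 receptors, fell by 0.60 (SE 0.10, adjusted p = 0.00208). Irs1 and Insr, named after their values were seen, had changes of 0.0012 and -0.07.

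Of 10 tested genes of the PI3K, AKT and FOXO pathway 1 rose and 1 fell. Foxo1, for the transcription factor that insulin keeps out of the nucleus and that activates Igfbp1 in liver, rose by 0.68 (SE 0.12, limma, adjusted p = 0.00289). The PI3K regulatory subunit gene Pik3r1 fell by 0.35 (SE 0.09, adjusted p = 0.0317), a call lost without any of the 4 KO replicates or without WT replicate 1 or 3 (adjusted p = 0.0554 to 0.0926). Of 8 genes that fasting regulates together with Igfbp1, 6 rose and 0 fell. Pck1 and G6pc, which encode the gluconeogenic enzymes PEPCK and glucose 6-phosphatase, rose by 2.47 (SE 0.17) and 0.92 (SE 0.11), and the coactivator gene Ppargc1a by 1.11 (SE 0.14). The remaining rises, named after their values were seen, were Sesn1 (0.90), Tat (0.68) and Pdk4 (0.47). Tat also stands among the hepatocyte markers. The Tat call ended without KO replicate 1 or 2 or WT replicate 2 or 4, and the Pdk4 call without KO replicate 1 or 3 or WT replicate 1, 2 or 3 (adjusted p = 0.0609 to 0.0987). This list was written with the rises of Pck1 and Ppargc1a already known, so its direction is not independent evidence.

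Of 10 genes whose products carry an IGFBP domain outside the family, 1 rose and 2 fell. Esm1, an endothelial gene, fell by 2.09 (SE 0.18, limma, adjusted p = 2.52e-05), Crim1 by 0.66 (SE 0.12, adjusted p = 0.00307), and the matrix-associated factor gene Ccn2 rose by 0.49 (SE 0.10, adjusted p = 0.00603). With the mean of its rows in place of the brightest row, Ccn2 had a change of 0.29 (adjusted p = 0.217). Proteases that cleave binding proteins, with their inhibitors, gave 0 calls of 6 (limma, with 1 at an unadjusted p under 0.05). A mixed list gave 0 of 5 (limma, with 3 at an unadjusted p under 0.05). It held integrins and other binding partners and, apart from these, the cation-dependent mannose 6-phosphate receptor. Over all 58 tested genes of the axis outside the family 12 rose and 4 fell, with a median change of 0.03. Of all genes tested 7.02% rose and 6.76% fell. Of the 12 rises 6 came from the fasting list, which was written with the rises of Pck1 and Ppargc1a already known, so the excess of rises is not independent evidence.

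**Figure D4:**
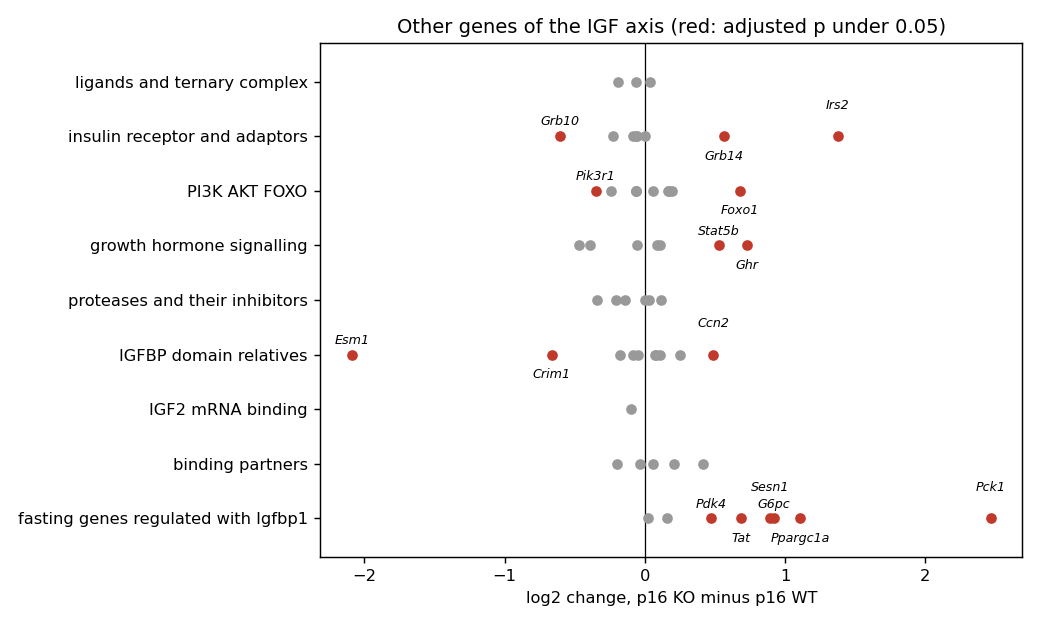
Log2 change, p16 KO minus p16 WT, of 58 other genes of the IGF axis by role, with called genes in red and named. The called genes are spread over 5 of the 9 lists, with Esm1 (-2.09) at one end and Pck1 (2.47) at the other.

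For each gene called, the 3 genes of most similar profile were taken by the root mean square difference of centred log2 values over the 8 arrays. For Igfbp1 they were Rnf31 (0.054), Nrn1 (0.058) and P4ha2 (0.073), where the median over all genes was 0.45. For Igfbp3 they were Agap1 (0.063), Ptprm (0.069) and Wwtr1 (0.071), against a median of 0.32. For Igfbp7 they were Dkc1 (0.093), the predicted gene Gm13056 (0.095) and Plpp3 (0.096), against a median of 0.60. These are likenesses of profile over 8 arrays in which the group difference dominates.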

How the data were processed

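Total RNA of 4 p16 KO and 4 p16 WT hepatocyte samples was biotin-labelled and hybridised to oligonucleotide gene arrays, 1 array per sample. The deposited table holds log2 expression values of 41345 rows; the authors made them with RMA from the oligo package (no version named), per the submitters' processing notes. RMA scales arrays to each other, so a shift of the whole transcriptome may be removed, and fold changes of dim genes come out too small. The deposited arrays were close in distribution but not identical, with medians over all rows of 3.76 to 3.88 in KO and 3.76 to 3.86 in WT. Arrays have no read depth; their number limits precision.

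Rows with exactly 1 symbol in the platform annotation (23521) were named, and the row of highest mean was kept per gene. Genes whose mean exceeded 3.32, the 40th percentile over rows, were compared by limma 3.58.1 in R 4.3.3 (lmFit, eBayes, 6 residual and 5.05 prior degrees of freedom), KO minus WT, two-sided, with Benjamini-Hochberg adjustment over 15380 genes. On simulated data for this comparison, 46%, 90% and 98% of genes raised by 0.5, 1 and 2 were called, and 6.86% of calls were false. The simulated noise was independent between genes, and far fewer genes were changed than were called on the real arrays. Recovery depends on the share of changed genes, so these rates may differ in the real data. The fit was repeated after subtraction of marker list means. The members, gene lists and tests were chosen with earlier results of these data known. Named genes were the 9 members, up to 3 called genes per axis list, 2 markers of smallest p per cell type list (bile duct and mesothelial ones, not called, are only counted), 3 genes of similar profile per called member, and Cdkn2a. Alternatives were other filters, row rules, normalizations, variance models and thresholds, the replicate number as a block and leaving out each array.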

Additional observations from a re-analysis of the deposited data

Results flagged for a closer look

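In 3 of 18 sets of 4 arrays, 1 array lay farther from the other 3 than Dixon's 95% critical value for the gap over the range allows, where chance gives about 5% of sets. For Igfbp7, KO replicate 1 (5.39) lay below the other KO arrays, the nearest of which was at 5.61, and WT replicate 4 (6.61) lay below the other WT arrays, the nearest of which was at 6.74. For Igfbp2, WT replicate 3 (7.59) lay below the other WT arrays, the nearest of which was at 7.61. The Igfbp7 call held without KO replicate 1 and without WT replicate 4.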

How the results depend on the processing

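The calls of Igfbp1, Igfbp3 and Igfbp7 kept their direction and passed under all 22 alternatives, with changes of 0.69 to 0.84, -0.57 to -0.48 and -1.19 to -1.10. The count of members higher in KO was 2 in place of 1, through Igfbp2, with the filter at the 60th percentile, with an intensity trend and at a threshold of 0.1. Igf1r passed under 6 alternatives (cyclic loess, quantile normalization, array weights, the replicate block, without KO replicate 4 and at a threshold of 0.1). Among values that missed the threshold, the sign turned for Igfbp5 with array weights (-0.015) and without KO replicate 4 (-0.071), for Igf2r without KO replicate 4 (0.038), for Igfals with array weights (0.0076) and without KO replicate 4 (0.062), for Igf1 without WT replicate 2 (-0.014), for Irs1 with the mean of its rows (-0.15) and for Cdkn2a with array weights (-0.018); Irs1, Insr and Cdkn2a also turned without single arrays. Over the 8 fits that leave out 1 array these values ranged from -0.071 to 0.16 for Igfbp5, from -0.18 to 0.038 for Igf2r, from -0.11 to 0.062 for Igfals from -0.014 to 0.070 for Igf1, from -0.078 to 0.051 for Irs1, from -0.12 to 0.030 for Insr and from -0.12 to 0.093 for Cdkn2a. The 9 genes of similar profile kept direction and call under the alternatives that tested them, except Wwtr1 at a threshold of 0.01 (adjusted p = 0.0157). The Grb14 call was lost under 10 of 22 alternatives, the Pik3r1 call under 9, the Pdk4 call under 7 and the Tat call under 5. Beside the threshold of 0.01 and single arrays left out, these were no filter (adjusted p = 0.0829 for Grb14, 0.0613 for Pik3r1 and 0.0618 for Pdk4), median centring (0.0576 for Grb14 and 0.0975 for Pik3r1), and for Grb14 the 20th percentile filter (0.0687) and robust variances (0.0513). Over all genes 1071 were called at a threshold of 0.01, against 2119 at 0.05, and 1448 to 2165 without 1 array. Members called relative to hepatocyte markers numbered 5 in place of 8 with the 60th percentile filter, which leaves 3 of those 8 genes untested; relative to stellate markers, 3 in place of 6 with the list median. Same-numbered KO and WT arrays correlated in their deviations by 0.02 to 0.26, and 2 of the 4 KO arrays correlated best with their own number. The labels do not say whether the numbers mark pairs, and the main fit did not take them as pairs. With the replicate block 1 member was higher, 3 were lower and 2215 genes were called, Igf1r being the added member (limma, adjusted p = 0.0410).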

Other observations

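Some deposited values were identical between arrays to every digit given. WT replicates 2 and 3 share the value 3.35 for Igfbp5, and WT replicates 1 and 4 share 3.75 for Igfbp6, while the other 7 members had 8 distinct values each. Such ties occurred in 21.8% of rows up to the 40th percentile of row means, in 22.2% between the 40th and 60th, in 15.9% between the 60th and 80th and in 6.41% above the 80th.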
